A study of Mus musculus with 12 samples.

Results

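Colony-stimulating factors are secreted proteins that drive the production, survival and activation of myeloid cells. The 10 genes described here were taken by name as ligands and receptors of this family, with earlier results of these data known, out of 52550 annotated genes of which 21950 are protein-coding. They comprise 6 ligands and 4 receptors. The ligands are *Csf1* (M-CSF), *Il34*, *Csf2* (GM-CSF), *Csf3* (G-CSF), *Kitl* (stem cell factor) and *Flt3l*. The receptors are *Csf1r*, *Csf2ra*, *Csf2rb* and *Csf3r*. All 10 were high enough in read count to be tested. They were measured by bulk RNA sequencing of whole lungs from 12 C57Bl/6J mice on postnatal day 5, each the source of a single library, and the mice fell into 4 groups of 3. WT mice carry both copies of the adrenomedullin gene (*Adm*+/+). *Adm*+/- mice carry 1 functional copy in every cell of the body, from an allele backcrossed for 12 generations onto this background. Mice of each genotype were injected intraperitoneally once a day for 3 days with lipopolysaccharide (LPS) of Escherichia coli O55:B5 at 6 mg/kg, or with phosphate-buffered saline (PBS) alone. Lungs were taken 6 h after the third injection. The comparisons ask how LPS changes these genes in the neonatal lung, a model of bronchopulmonary dysplasia, and whether loss of 1 *Adm* copy alters that change.

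M-CSF and interleukin-34 bind the same receptor tyrosine kinase, *Csf1r*, and maintain monocytes and macrophages. GM-CSF binds the alpha chain *Csf2ra*, which pairs with the common beta chain *Csf2rb* to signal through *Jak2*, and alveolar macrophages need this pathway to mature and to clear surfactant after birth. G-CSF acts through *Csf3r* on neutrophils and their precursors, stem cell factor acts through *Kit* on mast cells and progenitors, and the *Flt3* ligand acts through *Flt3* on dendritic cells and progenitors.

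The shallowest library held 22382535 counts and the deepest 38062873 (median 28494877). Levels are given as CPM, the count of a gene relative to the summed counts of the tested protein-coding genes in its library, scaled by TMM to correct for library composition. The authors report checking the genotype by genotyping and by real-time RT-PCR of *Adm* in lung. In these counts the targeted gene did not separate the genotypes. *Adm* was at 3.96, 7.09 and 4.57 CPM in the WT PBS mice and at 4.58, 2.87 and 3.62 CPM in the *Adm*+/- PBS mice. It was at 7.77, 8.15 and 4.46 CPM after LPS in WT and at 3.74, 6.28 and 3.92 CPM after LPS in *Adm*+/-. The log2 difference between *Adm*+/- and WT was -0.50 ± 0.32 (SE; 95% interval -1.20 to 0.19) in PBS. It was -0.55 ± 0.31 (-1.22 to 0.12) in LPS, and neither passed (adjusted p = 0.999 and 0.479). Some libraries stood apart. WT PBS replicate 5 and *Adm*+/- PBS replicate 6 placed 77.8% and 80.1% of their counts on protein-coding genes, where the remaining 10 libraries placed 84.3% to 87.6%. Reads of *Gm26917*, which is not protein-coding, made up 16.6% and 13.3% of the total in these 2 and between 5.42% and 7.40% in the others, and their summed fibroblast markers were at 30609 and 20383 CPM, against 6725 to 11027 CPM elsewhere. WT PBS replicate 4 had a summed level of neutrophil markers of 180 CPM, against 33.6 to 58.3 CPM in the other PBS libraries, and was the PBS library with the highest *Csf1*, *Csf3* and *Csf2rb*. All 3 WT LPS libraries held RNA of skeletal muscle markers, with a summed level of 356 to 1182 CPM against 6.37 to 26.8 CPM in the other groups. WT LPS replicates 9 and 11 also held RNA of squamous epithelium markers, at 2798 and 1453 CPM, against 23.3 CPM in replicate 10 and at most 37.5 CPM elsewhere. The tissue label was borne out by the type II pneumocyte markers, which summed to between 13101 and 17102 CPM.

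A gene was called changed at an adjusted p below 0.05 (Benjamini-Hochberg over 15885 tested genes) and an absolute log2 fold change above 0.5, by edgeR's quasi-likelihood test in 1 fit of all 12 libraries. LPS raised 6 of the 10 genes in WT lungs and lowered none of them, and the 7 genes with an unadjusted p below 0.05 were all higher, beside 5830 of all tested genes at such a p in either direction. The 6 were *Csf1*, *Csf2*, *Csf3*, *Csf1r*, *Csf2rb* and *Csf3r*. Of all tested genes, 10.5% were called higher and 7.09% lower in this comparison. In *Adm*+/- lungs LPS also raised 6 genes and lowered none (8 genes at an unadjusted p below 0.05, all higher, beside 6639 of all tested genes in either direction), against 12.8% of all tested genes called higher and 12.2% called lower. These were *Csf1*, *Csf2*, *Csf3*, *Csf2rb*, *Csf3r* and *Il34*, so that 5 of the 10 genes were called in both genotypes. The median log2 fold change of the 10 genes was 1.07 in WT and 1.91 in *Adm*+/-, beside 0.01 and -0.01 over all tested genes. Every LPS mouse lay above every PBS mouse for 4 of the 10 genes in WT (18.3% of all tested genes) and for 9 of the 10 in *Adm*+/- (26.6% of all tested genes). In bulk tissue, more cells of a type and more RNA per cell cannot be told apart.

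**Figure D1:**
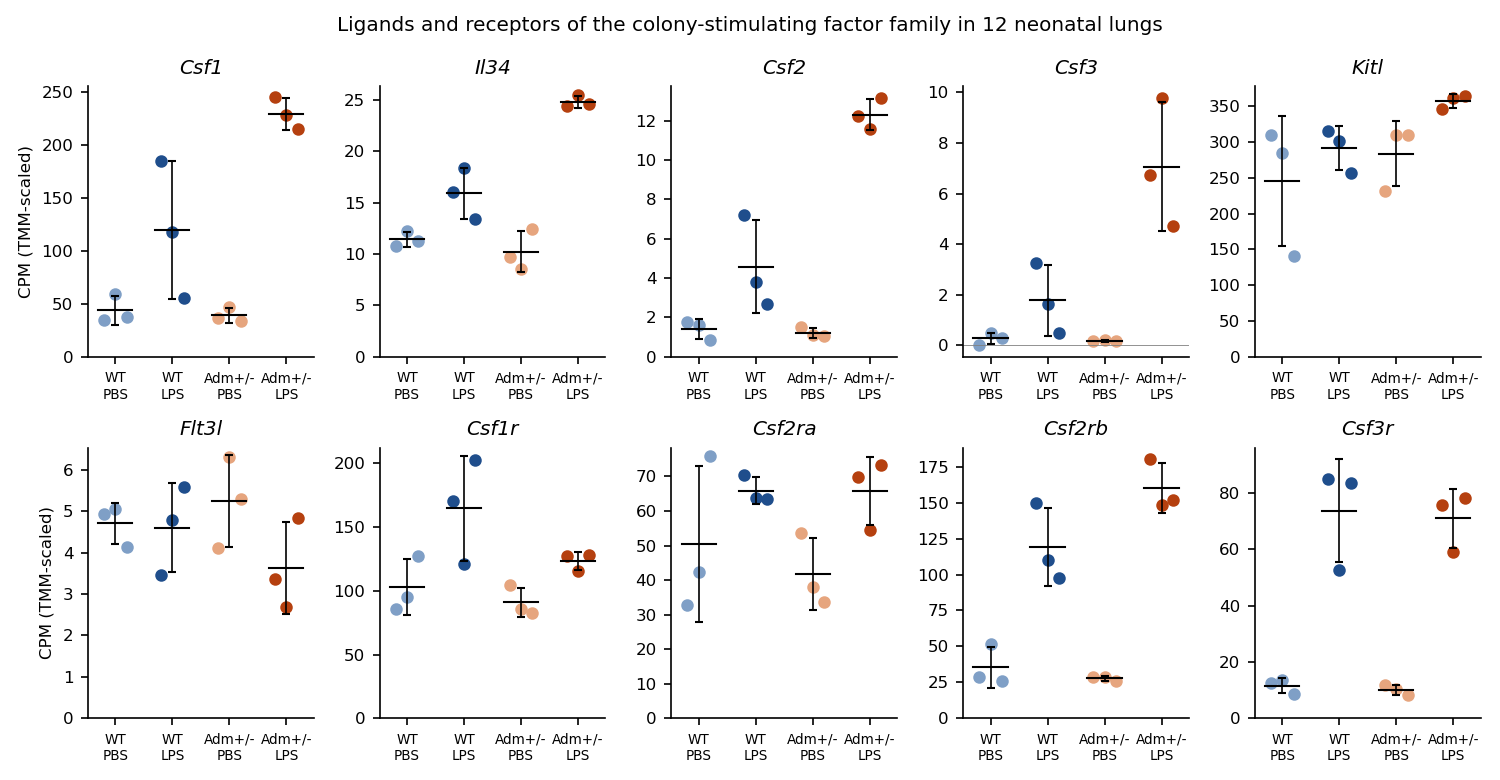
CPM (TMM-scaled, linear axis from 0) of each gene in the 12 lungs, with 1 point per mouse, a line at the mean of the 3 mice and a bar of 1 SD to each side. Csf1, Csf2 and Csf3 spread widely among the WT LPS mice, while the Adm+/- LPS mice lie above all 3 of them.

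Among the ligands, *Csf1* (chr3:107741048-107760469, minus strand, mm10) encodes M-CSF, the main growth factor of macrophages. It was at 34.8, 59.2 and 37.2 CPM in WT PBS and at 185, 118 and 55.1 CPM in WT LPS. It was at 36.2, 47.0 and 34.1 CPM in *Adm*+/- PBS and at 245, 228 and 214 CPM in *Adm*+/- LPS. WT LPS replicate 11 stayed within the range of the PBS mice, so the WT groups overlapped, whereas the *Adm*+/- groups were far apart. The highest WT LPS mouse exceeded the lowest 3.36-fold, compared with 1.14-fold among the *Adm*+/- LPS mice. *Csf1* rose 2.73-fold in WT (log2 1.45 ± 0.35, SE; adjusted p = 0.0144) and 5.86-fold in *Adm*+/- (log2 2.55 ± 0.36; adjusted p = 0.000435). The WT call was lost without WT LPS replicate 9 (0.98; adjusted p = 0.072), with a test against a log2 fold change of 0.5 by glmTreat (adjusted p = 0.0631) and with only the 6 WT libraries fitted (adjusted p = 0.0792).

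*Il34* (chr8:110741829-110805924, minus strand) encodes the other ligand of *Csf1r*, known from the skin and the brain, where it maintains Langerhans cells and microglia. *Il34* was at 10.8, 12.3 and 11.2 CPM in WT PBS and at 16.0, 18.4 and 13.4 CPM in WT LPS. It was at 9.68, 8.58 and 12.4 CPM in *Adm*+/- PBS and at 24.4, 25.5 and 24.6 CPM in *Adm*+/- LPS. The LPS mice lay above the PBS mice in both genotypes. *Il34* rose 2.43-fold in *Adm*+/- (log2 1.28 ± 0.16; adjusted p = 0.000209). In WT its log2 fold change was 0.48 ± 0.16 (95% interval 0.13 to 0.83; adjusted p = 0.0509), just short of the threshold, and without WT LPS replicate 11 it passed (0.59; adjusted p = 0.0306). *Il34* overlaps *Gm15894* and *Gm15895* on the opposite strand, which had 3 to 43 counts per library.

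*Csf2* (chr11:54247271-54249667, minus strand) encodes GM-CSF, a cytokine made on demand by epithelium, lymphocytes and other cells. Its level was low, with 14 to 46 counts per PBS library and 67 to 369 counts per LPS library. *Csf2* was at 1.79, 1.60 and 0.865 CPM in WT PBS and at 7.21, 3.83 and 2.67 CPM in WT LPS. It was at 1.53, 1.12 and 1.03 CPM in *Adm*+/- PBS and at 12.2, 11.6 and 13.1 CPM in *Adm*+/- LPS. No LPS mouse overlapped the PBS mice of its genotype, and the 3 *Adm*+/- LPS mice were close to each other. *Csf2* rose 3.18-fold in WT (log2 1.67 ± 0.36; adjusted p = 0.00795) and 10.1-fold in *Adm*+/- (log2 3.34 ± 0.37; adjusted p = 0.000111). With only the 6 WT libraries fitted the WT call was lost (adjusted p = 0.0645). *Csf2* overlaps *Gm12223* on the opposite strand, which had 0 to 17 counts per library. *Il3*, the neighbour of *Csf2* on chromosome 11 and a ligand of the same beta chain family, was too low to be tested. It had 0, 0 and 0 counts in *Adm*+/- PBS and 8, 11 and 23 counts in *Adm*+/- LPS, beside 2, 1 and 0 counts in WT PBS and 8, 2 and 0 counts in WT LPS.

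Short-lived cytokine messages often carry AU-rich elements in the 3′ untranslated region (UTR), and these were searched for after the expression values were known. The 3′ UTR of *Csf2* spans 317 bases and holds 9 copies of ATTTA, a number reached by 0.0468% of 2139 3′ UTRs of like length (within 25% either way). It holds 5 copies of the nonamer ATTTATTTA, of which 4 overlap in a run. This nonamer occurs at least once in 1.40% of those 3′ UTRs and in 6.16% of all 21027 3′ UTRs. *Csf3* had 6 copies of ATTTA in 669 bases (as many in 1.68% of 2856 3′ UTRs of like length) and no nonamer, and *Csf1* had 4 copies in 2111 bases (48.1% of 3514). *Kitl*, whose level did not pass in either genotype, had 14 copies of ATTTA in 4435 bases (as many in 14.0% of 1682 3′ UTRs of like length). It had 1 nonamer, and 15.2% of those 3′ UTRs hold the nonamer. *Csf1r* had 3 copies of ATTTA in 1669 bases (51.2% of 3632) and *Il34* had 1 copy in 605 bases (57% of 2666). No ATTTA was found in the 3′ UTRs of *Csf2ra*, *Csf2rb*, *Csf3r* and *Flt3l*. The stretches of *Csf2* and *Kitl* are shown to set the cluster beside a single copy. They were read from the mm10 genome on the strand of the gene, at chr11:54247329-54247358 (minus) and chr10:100097941-100097970 (plus), with the nonamers in capitals. The *Csf2* stretch holds 4 of its 5 nonamers.
Csf2: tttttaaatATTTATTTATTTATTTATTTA
Kitl: tttgtgacttgATTTATTTAtctggtagtt

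*Csf3* (chr11:98701263-98703629, plus strand) encodes G-CSF, the principal factor of emergency neutrophil production. It was close to the limit of counting in PBS, with 1, 10 and 5 counts in WT and 3, 7 and 4 counts in *Adm*+/-. *Csf3* was at 0.0388, 0.485 and 0.309 CPM in WT PBS and at 3.27, 1.62 and 0.478 CPM in WT LPS. It was at 0.158, 0.237 and 0.159 CPM in *Adm*+/- PBS and at 6.73, 9.76 and 4.70 CPM in *Adm*+/- LPS. WT LPS replicate 11 fell within the WT PBS range, and all *Adm*+/- LPS mice were above every other mouse. *Csf3* rose in WT by 2.77 ± 0.74 on the log2 scale (95% interval 1.14 to 4.39; adjusted p = 0.0232). It rose in *Adm*+/- by 5.19 ± 0.74 (3.57 to 6.81; adjusted p = 0.000444), the largest change among the 10 genes. The WT call was lost without WT LPS replicate 9 (1.97; adjusted p = 0.12) or without WT PBS replicate 3 (2.15; adjusted p = 0.0584), and with limma-voom (2.86; adjusted p = 0.0601). It was also lost with glmTreat (adjusted p = 0.0617), with WT PBS replicate 5 and *Adm*+/- PBS replicate 6 left out (2.88; adjusted p = 0.0542) and with only the 6 WT libraries fitted (2.74; adjusted p = 0.1).

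The same WT LPS library, replicate 9, had the highest level of *Csf1*, *Csf2* and *Csf3* in its group, and replicate 11 had the lowest. Replicate 9 also had the highest summed neutrophil markers (3008 CPM, against 1715 and 1828 CPM in replicates 10 and 11), skeletal muscle markers (1182 CPM, against 1056 and 356 CPM) and squamous epithelium markers (2798 CPM, against 23.3 and 1453 CPM). The skeletal muscle list passed in full in WT, with 8 of 8 genes higher, as did the squamous list with 5 of 5 tested genes, while in *Adm*+/- the counts were 1 of 8 and 0 of 5, with 2 genes of each list at an unadjusted p below 0.05. Their part in the levels of the 3 ligands was not tested. Without replicate 9, 3 of the 10 genes remained called in WT, namely *Csf2*, *Csf2rb* and *Csf3r*. That fit called 1002 of 16026 tested genes higher and 441 lower, where the fit of all 12 libraries called 1664 and 1127 of 15885.

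The other ligands did not pass in either genotype. *Kitl* (chr10:100015630-100100416, plus strand), which is made by stromal and endothelial cells, was at 310, 284 and 141 CPM in WT PBS and at 316, 301 and 257 CPM in WT LPS. It was at 232, 310 and 310 CPM in *Adm*+/- PBS and at 346, 362 and 364 CPM in *Adm*+/- LPS. The lowest of these values belonged to WT PBS replicate 5, the library with the lowest share of protein-coding counts and the highest fibroblast marker sum. The log2 fold change of *Kitl* was 0.25 in WT (95% interval -0.26 to 0.76; adjusted p = 0.465) and 0.33 in *Adm*+/- (-0.18 to 0.84; adjusted p = 0.310). Without WT PBS replicate 5 the WT value turned to -0.03. The part of the fibroblast markers in the *Kitl* level was not tested. *Flt3l* (chr7:45129788-45136432, minus strand) was at 4.93, 5.05 and 4.14 CPM in WT PBS and at 3.45, 4.78 and 5.58 CPM in WT LPS. It was at 4.10, 6.32 and 5.29 CPM in *Adm*+/- PBS and at 3.37, 2.68 and 4.85 CPM in *Adm*+/- LPS. The groups overlapped in both genotypes. Its log2 fold change was -0.04 in WT (-0.60 to 0.52; adjusted p = 0.928) and -0.53 in *Adm*+/- (-1.09 to 0.03; adjusted p = 0.138).

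**Figure D2:**
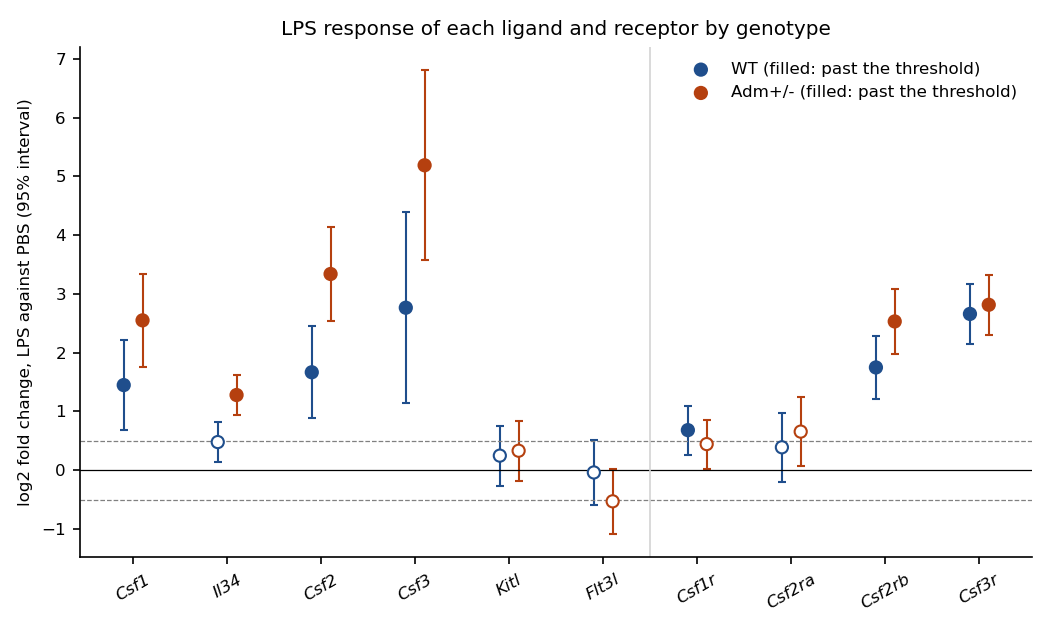
Log2 fold change of LPS against PBS for the 6 ligands (left of the grey line) and the 4 receptors (right) in WT and Adm+/- lungs, with 95% intervals from the edgeR fit. Filled points passed the threshold and dashed lines mark a log2 fold change of 0.5 in each direction. Csf1, Csf2, Csf3, Il34 and Csf2rb (1.75 and 2.53) lie higher in Adm+/- than in WT, Csf3r is at 2.66 and 2.82, and no difference between genotypes passed.

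Among the receptors, *Csf3r* (chr4:126024550-126044440, plus strand), which marks neutrophils and their precursors, rose in both genotypes. It was at 12.6, 13.6 and 8.71 CPM in WT PBS and at 84.8, 52.6 and 83.7 CPM in WT LPS. It was at 11.8, 10.3 and 8.19 CPM in *Adm*+/- PBS and at 75.7, 59.0 and 78.4 CPM in *Adm*+/- LPS. Every LPS mouse was above every PBS mouse. *Csf3r* rose 6.32-fold in WT (log2 2.66 ± 0.23; adjusted p = 7.55e-05) and 7.04-fold in *Adm*+/- (log2 2.82 ± 0.23; adjusted p = 4.84e-05). The neutrophil markers moved with it. Of 10 markers, 9 were called higher in WT and 10 in *Adm*+/-, and their summed level was 49.0 to 180 CPM in WT PBS, 1715 to 3008 CPM in WT LPS, 33.6 to 58.3 CPM in *Adm*+/- PBS and 1605 to 1932 CPM in *Adm*+/- LPS. No marker was at 0 in all 3 mice of a group, but *Ly6g* was at 0 in WT PBS replicate 3 and *Adm*+/- PBS replicate 8. *S100a9* and *S100a8*, which encode the calprotectin subunits, and *Ltf*, which encodes lactoferrin, were the most abundant, and *S100a9* rose by 4.71 in WT and 5.49 in *Adm*+/- on the log2 scale (adjusted p = 0.000468 and 0.000115). *S100a8* rose by 5.17 and 5.86 (adjusted p = 0.00048 and 0.000131), and *Ltf* by 4.19 and 4.46 (adjusted p = 8.98e-05 and 5.33e-05). *Ngp*, which encodes a neutrophil granule protein, rose by 4.81 and 5.60 (adjusted p = 0.000252 and 7.9e-05), and *Stfa2l1*, of the stefin family of protease inhibitors, by 4.56 and 5.45 (adjusted p = 0.000369 and 9.37e-05). The part of the neutrophil markers in the *Csf3r* level was not tested.

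*Csf2rb* (chr15:78325752-78353847, plus strand) encodes the beta chain shared by the receptors of GM-CSF, interleukin-3 and interleukin-5. It was at 28.4, 52.0 and 25.9 CPM in WT PBS and at 150, 110 and 97.5 CPM in WT LPS. It was at 28.8, 28.7 and 25.6 CPM in *Adm*+/- PBS and at 180, 148 and 152 CPM in *Adm*+/- LPS. The PBS and LPS mice did not overlap in either genotype. *Csf2rb* rose 3.36-fold in WT (log2 1.75 ± 0.24; adjusted p = 0.000856) and 5.78-fold in *Adm*+/- (log2 2.53 ± 0.25; adjusted p = 7.68e-05). Mice have a second beta chain gene nearby, *Csf2rb2* (chr15:78282507-78305721, minus strand), which serves interleukin-3 alone. *Csf2rb2* was at 6.72 to 11.4 CPM in WT PBS, 31.5 to 45.7 CPM in WT LPS, 5.73 to 7.26 CPM in *Adm*+/- PBS and 41.6 to 50.5 CPM in *Adm*+/- LPS. It rose in both genotypes, by 2.14 ± 0.22 in WT and 2.76 ± 0.22 in *Adm*+/- on the log2 scale (adjusted p = 0.000157 and 4.78e-05). The longest transcripts of the pair share 18.4% of the 50-base windows of *Csf2rb*, and 6.96% of its 100-base windows, so the division of reads between them is uncertain. *Csf2rb2* took 17.99% to 21.2% of their joint counts in the PBS libraries and 21.9% to 24.4% in the LPS libraries.

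The ligand-specific alpha chain *Csf2ra* (chr19:61223957-61228429, minus strand) did not pass in either genotype. *Csf2ra* was at 32.8, 42.5 and 76.0 CPM in WT PBS and at 70.4, 63.7 and 63.6 CPM in WT LPS. It was at 53.7, 37.98 and 33.8 CPM in *Adm*+/- PBS and at 69.7, 54.5 and 73.3 CPM in *Adm*+/- LPS. The highest PBS value of each genotype came from the library with the low protein-coding share, and in WT it was above every LPS mouse. These are the libraries with the high fibroblast marker sums, whose part in the *Csf2ra* level was not tested. The log2 fold change was 0.39 in WT (95% interval -0.20 to 0.98; adjusted p = 0.313) and 0.66 in *Adm*+/- (0.07 to 1.25; adjusted p = 0.0848). With WT PBS replicate 5 and *Adm*+/- PBS replicate 6 left out, *Csf2ra* passed in both genotypes, at 0.81 (adjusted p = 0.00653) and 0.88 (adjusted p = 0.00191). Without WT PBS replicate 3 the WT value was 0.15 and did not pass.

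*Csf1r* (chr18:61100598-61132149, plus strand) encodes the receptor of M-CSF and interleukin-34 and is a defining gene of monocytes and macrophages. It was at 85.7, 95.2 and 127 CPM in WT PBS and at 170, 121 and 203 CPM in WT LPS. It was at 104, 85.8 and 82.3 CPM in *Adm*+/- PBS and at 127, 115 and 128 CPM in *Adm*+/- LPS. The WT groups overlapped, since WT PBS replicate 5 was above WT LPS replicate 10, and the *Adm*+/- groups did not. *Csf1r* rose 1.60-fold in WT (log2 0.68 ± 0.19; adjusted p = 0.0267). In *Adm*+/- the log2 fold change was 0.44 ± 0.19 (95% interval 0.03 to 0.86; adjusted p = 0.0975). The WT call was lost without WT PBS replicate 3 (0.56; adjusted p = 0.0705), WT PBS replicate 4 (0.63; adjusted p = 0.0718), WT LPS replicate 9 (0.65; adjusted p = 0.0911) or WT LPS replicate 11 (0.50; adjusted p = 0.0915). It was also lost with glmTreat (adjusted p = 0.391), with all annotated genes tested (0.65; adjusted p = 0.0505) and with only the 6 WT libraries fitted (adjusted p = 0.11). With WT PBS replicate 5 and *Adm*+/- PBS replicate 6 left out, *Csf1r* passed in *Adm*+/- too (0.56; adjusted p = 0.0349).

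Of 12 markers of monocytes and macrophages, 10 were called higher in WT and none lower, and in *Adm*+/- 9 were called higher and 1, *Cx3cr1*, lower. Their summed level was 228 to 275 CPM in WT PBS and 406 to 676 CPM in WT LPS, and 212 to 237 CPM in *Adm*+/- PBS and 373 to 448 CPM in *Adm*+/- LPS. The 3 WT LPS mice had the same order for this sum as for *Csf1r*. The mannose receptor gene *Mrc1* rose by 0.77 in WT and 0.86 in *Adm*+/- on the log2 scale (adjusted p = 0.00269 and 0.000755). *Adgre1*, which encodes the macrophage antigen F4/80, rose by 2.10 and 1.72 (adjusted p = 0.00136 and 0.00205), and *C1qb*, which encodes a chain of complement C1q, by 1.83 and 1.65 (adjusted p = 0.00197 and 0.00185). *Mertk*, a receptor for the uptake of dead cells, rose by 0.68 in WT (adjusted p = 0.0431) and was at 0.38 in *Adm*+/- (adjusted p = 0.202). Alveolar macrophage markers, whose cells depend on GM-CSF, were called higher for 4 of 10 genes in WT and 5 of 10 in *Adm*+/-, and their summed level was 109 to 151 CPM in WT PBS, 283 to 494 CPM in WT LPS, 102 to 127 CPM in *Adm*+/- PBS and 257 to 319 CPM in *Adm*+/- LPS. The scavenger receptor gene *Marco* rose by 3.81 in WT and 3.79 in *Adm*+/- (adjusted p = 0.000236 and 0.000122), the chitinase-like gene *Chil3* by 3.20 and 3.95 (adjusted p = 0.00056 and 0.000107) and *Plet1* by 1.64 and 1.57 (adjusted p = 0.00415 and 0.00289). *Car4*, the most abundant of this list and a gene that lung endothelium also expresses, was at 0.12 and 0.18 (adjusted p = 0.508 and 0.286). The part of these markers in the receptor levels was not tested. *Csf1r* shares its locus with *Hmgxb3* on the opposite strand, which had 1096 to 2015 counts per library, and whether counting used strand is not given in the sources used here.

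**Figure D3:**
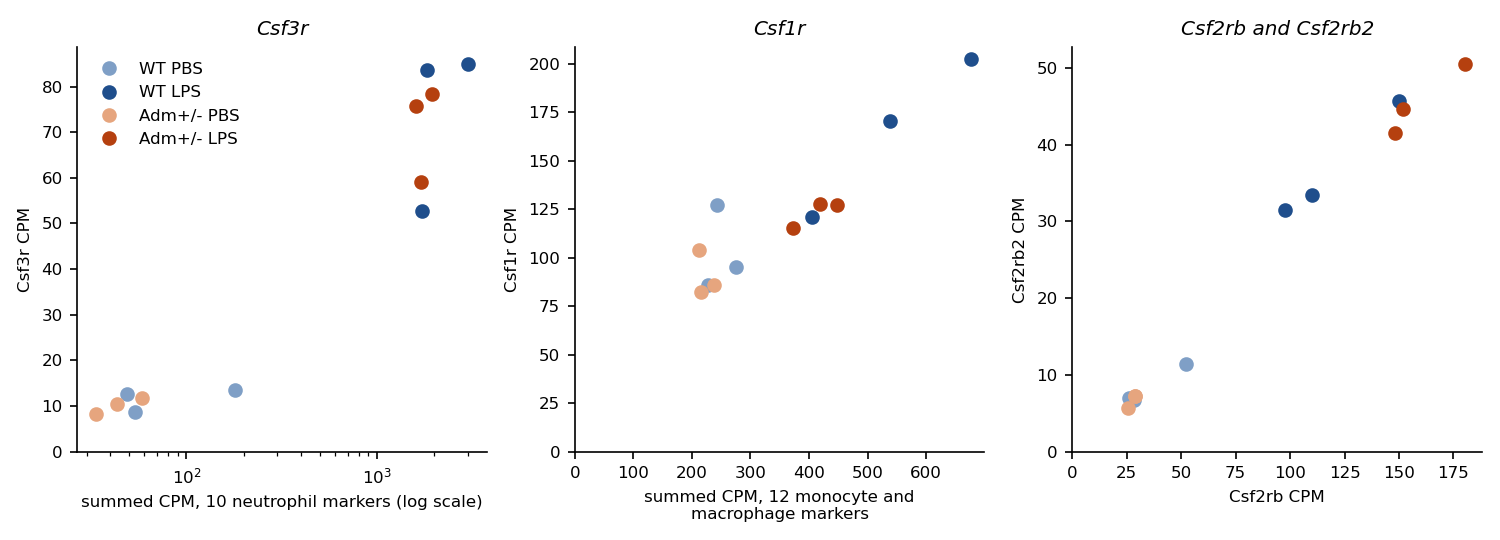
Csf3r against the summed CPM of 10 neutrophil markers (log horizontal axis), Csf1r against the summed CPM of 12 monocyte and macrophage markers, and Csf2rb2 against Csf2rb, in CPM with 1 point per mouse. The neutrophil sum separates PBS (at most 180 CPM) from LPS (at least 1605 CPM), and WT LPS replicate 11 is highest for both Csf1r (203 CPM) and its markers (676 CPM).

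*Kit* and *Flt3* did not pass in either genotype. *Kit*, the receptor of stem cell factor, was at 183 to 249 CPM in WT PBS, 184 to 272 CPM in WT LPS, 196 to 281 CPM in *Adm*+/- PBS and 280 to 311 CPM in *Adm*+/- LPS. Its log2 fold change was 0.04 in WT (95% interval -0.33 to 0.41; adjusted p = 0.893) and 0.31 in *Adm*+/- (-0.06 to 0.68; adjusted p = 0.187), and none of 6 tested mast cell markers, a list that holds *Kit* itself, was called in either genotype, with 0 in WT and 1 in *Adm*+/- at an unadjusted p below 0.05. *Flt3* had 11 to 60 counts per library and a log2 fold change of -0.65 in WT and -1.10 in *Adm*+/- (adjusted p = 0.347 and 0.0903). Of 7 tested dendritic cell markers, *Flt3* among them, 1 was lower in WT, and in *Adm*+/- 1 was higher and 1 lower. The alpha chain of the interleukin-3 receptor, *Il3ra*, was at -0.08 and 0.01 (adjusted p = 0.860 and 0.978). That of the interleukin-5 receptor, *Il5ra*, had 0 to 19 counts per library and was not tested. *Il5* itself, with 0 to 27 counts per library, was called higher in *Adm*+/- (log2 2.15; adjusted p = 0.0454) and was at 1.47 in WT (adjusted p = 0.228). *Ptprz1*, a second receptor of interleukin-34, was at 0.94 in WT and 0.30 in *Adm*+/- (adjusted p = 0.0988 and 0.590).

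Of 24 genes that carry the signal of these receptors, 11 were called in WT and 14 in *Adm*+/-, and each of those calls was a rise. *Jak2*, the kinase bound to the common beta chain, rose by 0.68 in WT and 1.21 in *Adm*+/- (log2; adjusted p = 0.00758 and 0.000171). *Stat3*, which G-CSF activates, rose by 0.85 and 1.82 (adjusted p = 0.0392 and 0.000528), and *Jak1* rose by 0.51 and 0.98 (adjusted p = 0.0226 and 0.000384). The WT groups overlapped for *Stat3*, with WT PBS replicate 4 at 322 CPM and WT LPS replicate 11 at 281 CPM. The Src family kinase *Fgr* rose by 2.07 and 2.37 (adjusted p = 0.000344 and 8.79e-05), and *Syk*, a kinase of immune receptors, rose by 1.14 and 1.46 (adjusted p = 0.000772 and 9.73e-05). *Akt1*, the most abundant of the list, was at -0.31 and -0.27 and did not pass (adjusted p = 0.222 and 0.273). The median log2 fold change of the list was 0.48 in WT and 0.69 in *Adm*+/-.

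Of 14 feedback and response genes, 7 were higher and 3 lower in WT, and 8 were higher and 2 lower in *Adm*+/-. *Socs3*, the inhibitor that limits G-CSF receptor signalling, rose by 1.60 in WT and 3.71 in *Adm*+/- (log2; adjusted p = 0.0306 and 0.000322). The survival kinase *Pim1* rose by 0.95 and 2.12 (adjusted p = 0.0230 and 0.000203), and the repressor *Bcl6* rose by 1.44 and 1.74 (adjusted p = 0.00132 and 0.00022). The same 2 WT libraries overlapped for *Socs3*, at 90.5 CPM in PBS and 72.7 CPM in LPS, where the other WT PBS mice were at 24.2 and 30.7 CPM, and for *Pim1*, at 51.4 and 50.6 CPM. *Ccnd2*, a cyclin of the early cell cycle, fell by 0.67 and 0.58 (adjusted p = 0.0107 and 0.0139). *Socs1* fell by 0.97 in WT (adjusted p = 0.0125) and was at -0.45 in *Adm*+/- (adjusted p = 0.147). *Socs2* rose by 0.72 in *Adm*+/- (adjusted p = 0.00497) and was at 0.08 in WT (adjusted p = 0.719), and the survival gene *Mcl1* did not pass, at 0.16 and 0.41 (adjusted p = 0.569 and 0.130).

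Of 16 transcription factors of myeloid cells, 5 were higher and none lower in WT, and 7 were higher and 1 lower in *Adm*+/-. *Spi1*, which encodes PU.1 and controls *Csf1r*, *Csf2ra* and *Csf3r* in blood cells, rose by 2.07 in WT and 2.08 in *Adm*+/- (log2; adjusted p = 6.65e-05 and 4.86e-05). *Bhlhe40* rose by 0.97 and 1.74 (adjusted p = 0.00323 and 8.02e-05), and *Runx1* rose by 0.56 and 1.18 (adjusted p = 0.00937 and 9.72e-05). *Cebpb*, which drives emergency granulopoiesis, rose by 1.03 in *Adm*+/- (adjusted p = 0.00376) and was at 0.48 in WT (adjusted p = 0.120). *Cebpd* rose by 3.44 in *Adm*+/- (adjusted p = 0.00113) and was at 1.36 in WT (adjusted p = 0.0893), where WT PBS replicate 4 was at 136 CPM and WT LPS replicate 11 at 70.0 CPM, and *Maf* fell by 0.78 in *Adm*+/- (adjusted p = 0.0075) and was at -0.40 in WT (adjusted p = 0.131).

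Membrane-bound M-CSF and stem cell factor, and *Csf1r*, are released or shed by proteases. Of 7 such proteases and their regulators, 2 were called in WT and 3 in *Adm*+/-, all of them higher. *Mmp9*, which releases stem cell factor, rose by 4.11 and 3.92 (log2; adjusted p = 0.000112 and 7.68e-05), and *Rhbdf2*, a regulator of the sheddase *Adam17*, rose by 0.51 and 1.03 (adjusted p = 0.0319 and 0.000476). *Furin* rose by 0.76 in *Adm*+/- (adjusted p = 0.00243) and was at 0.27 in WT (adjusted p = 0.190). *Mmp14* and *Adamts1*, the most abundant of the list, did not pass in either genotype, at -0.19 and -0.28 in WT and at 0.15 and 0.23 in *Adm*+/- (adjusted p = 0.191, 0.297, 0.269 and 0.373).

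The promoters of *Csf1*, *Csf3r* and *Kitl* are shown because, of the 6 members with a window in the RefSeq table, these 3 held a match to the NF-kappa B consensus, and 2 of these genes rose while *Kitl* did not pass. Each window runs from 250 bases before to 50 bases after the start given by RefSeq (GRCm38.p6), is read on the strand of the gene and covers 300 bases. The windows are chr3:107760420-107760719 (minus) for *Csf1*, chr4:126024409-126024708 (plus) for *Csf3r* and chr10:100015571-100015870 (plus) for *Kitl*. Capitals mark matches. In *Csf1* they mark the NF-kappa B match, in *Csf3r* the NF-kappa B match and then the PU.1 core GAGGAA, and in *Kitl* the NF-kappa B match and then the TATA box TATAAA.
Csf1: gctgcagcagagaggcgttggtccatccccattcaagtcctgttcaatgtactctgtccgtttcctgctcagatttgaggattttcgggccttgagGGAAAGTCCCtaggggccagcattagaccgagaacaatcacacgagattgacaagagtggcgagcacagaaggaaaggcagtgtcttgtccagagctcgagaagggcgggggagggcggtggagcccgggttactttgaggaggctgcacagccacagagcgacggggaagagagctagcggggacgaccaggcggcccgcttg
Csf3r: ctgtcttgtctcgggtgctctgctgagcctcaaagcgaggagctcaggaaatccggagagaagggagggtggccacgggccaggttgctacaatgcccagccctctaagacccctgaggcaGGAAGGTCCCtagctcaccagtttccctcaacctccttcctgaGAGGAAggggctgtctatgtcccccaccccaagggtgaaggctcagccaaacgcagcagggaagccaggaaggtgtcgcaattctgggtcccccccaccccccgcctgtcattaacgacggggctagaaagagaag
Kitl: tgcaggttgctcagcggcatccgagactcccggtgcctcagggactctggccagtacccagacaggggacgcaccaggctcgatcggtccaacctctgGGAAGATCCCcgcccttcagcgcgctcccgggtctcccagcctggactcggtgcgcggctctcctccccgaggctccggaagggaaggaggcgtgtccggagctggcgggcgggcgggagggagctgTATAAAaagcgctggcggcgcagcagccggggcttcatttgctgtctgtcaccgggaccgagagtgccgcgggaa

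The NF-kappa B match began 154 bases before the start in *Csf1*, 129 bases in *Csf3r* and 152 bases in *Kitl*, and 8.46% of 32851 promoter windows hold such a match on either strand. GAGGAA was found once in *Csf3r* and in 2 copies, side by side just before the start, in *Csf2ra* (28.3% of all windows), and TATAAA once in *Kitl* (13.6% of all windows). The windows of *Csf2* and *Flt3l* held none of the 5 motifs searched, which also included TGANTCA, the AP-1 site (7.81% of all windows), and TTCNNNGAA, the STAT site (8.30% of all windows). The *Csf2* window, chr11:54249850-54250149, lies upstream of the gene start in Gencode M21 (54249667) and does not include it. The RefSeq starts of *Csf3r*, *Kitl* and *Csf2ra* lie downstream of their gene starts in Gencode M21. The PU.1 core of *Csf3r* and both matches of *Kitl* therefore lie inside the Gencode gene, while the NF-kappa B match of *Csf3r* lies upstream of both starts. In *Csf2ra* the upstream GAGGAA copy spans the Gencode start and the other copy lies inside the gene. A match describes letters and is not evidence of binding.

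Levels of different genes were compared per kilobase of exon (CPM per kb). In WT PBS lungs *Kitl* was highest at 41.5 ± 15.4 (SD, n = 3), followed by *Csf1r* at 17.8 ± 3.77, *Csf2ra* at 17.6 ± 7.89 and *Csf1* at 8.28 ± 2.55. *Il34* was at 5.84 ± 0.388, *Csf2rb* at 4.87 ± 1.98 and *Csf3r* at 3.22 ± 0.714. *Csf2* was at 1.77 ± 0.609, *Flt3l* at 1.21 ± 0.128 and *Csf3* at 0.197 ± 0.159. Among neighbours in this order, *Csf1r* and *Csf2ra*, *Il34* and *Csf2rb*, *Csf2rb* and *Csf3r*, and *Csf2* and *Flt3l* overlapped between mice, and the other neighbours did not. In *Adm*+/- PBS lungs the order was the same, and the overlapping neighbours were *Csf1r* and *Csf2ra*, and *Csf2* and *Flt3l*. Between the genes of the *Csf1r* ligands, *Csf1* RNA was above *Il34* RNA in every group by mean, at 7.40 against 5.22 CPM per kb in *Adm*+/- PBS.

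After LPS the order of the means differed. In WT LPS lungs *Csf1r* (28.5 ± 7.13), *Csf2ra* (23.0 ± 1.35), *Csf1* (22.6 ± 12.3), *Csf3r* (20.4 ± 5.06) and *Csf2rb* (16.4 ± 3.77) each overlapped its neighbour, below *Kitl* at 49.3 ± 5.21. *Il34* (8.14 ± 1.27), *Csf2* (5.71 ± 2.95), *Csf3* (1.27 ± 0.992) and *Flt3l* (1.19 ± 0.277) were lower, and of these neighbours *Csf2* and *Csf3* did not overlap. In *Adm*+/- LPS lungs *Csf1* stood second at 43.4 ± 2.86, below *Kitl* at 60.4 ± 1.66 and above *Csf2ra* at 22.9 ± 3.47, with no overlap on either side. *Csf2ra*, *Csf2rb* (22.0 ± 2.42), *Csf1r* (21.4 ± 1.24), *Csf3r* (19.7 ± 2.90) and *Csf2* (15.4 ± 0.994) followed, each overlapping the next. Below them, with no overlap between neighbours, *Il34* was at 12.7 ± 0.297, *Csf3* at 5.00 ± 1.80 and *Flt3l*, now the lowest, at 0.936 ± 0.285. *Csf2rb* was below *Csf2ra* per kb of exon in each group by mean, at 4.87 against 17.6 in WT PBS and at 22.0 against 22.9 in *Adm*+/- LPS, where the mice overlapped. This order depends on the length used. Per kb of the longest transcript, *Csf2rb* was above *Csf2ra* in *Adm*+/- LPS by mean (32.7 against 28.9). On that scale *Csf2rb* was also above *Csf3r* in WT LPS (24.3 against 21.2) and *Flt3l* above *Csf3* there (1.85 against 1.27), and in PBS *Flt3l* was above *Csf2* in both genotypes (1.90 against 1.77 in WT). In WT PBS, *Csf2ra* was then above *Csf1r* (22.1 against 21.8) and *Csf2rb* above *Il34* (7.23 against 6.37). *Kitl* stayed highest, and *Csf1* above *Il34*, in each group on both scales.

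**Figure D4:**
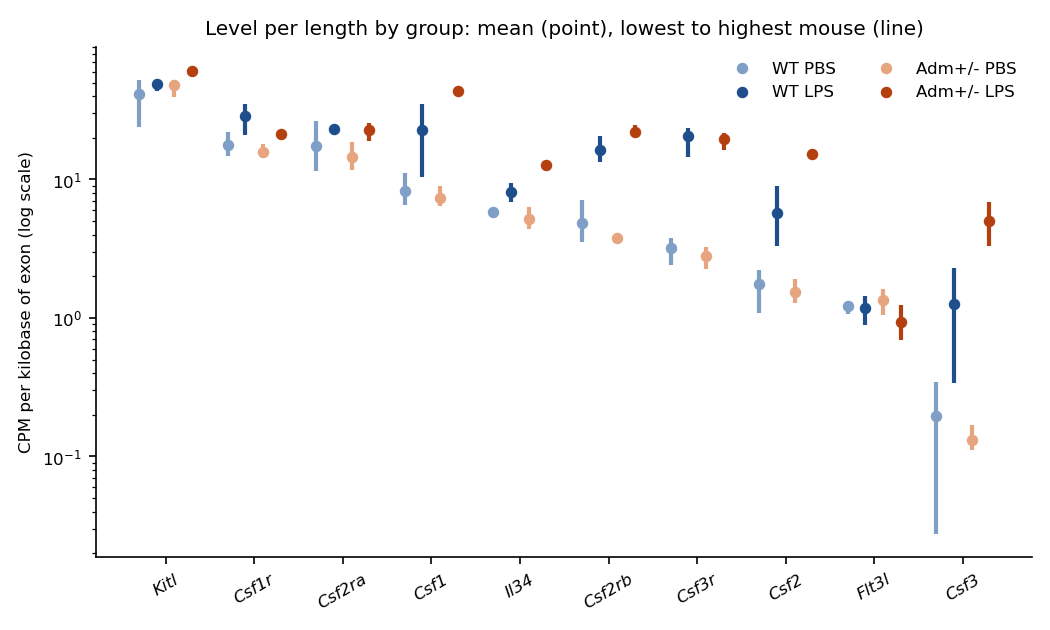
Level per length (CPM per kb of exon, log axis) of the 10 genes in the 4 groups, ordered by their mean in WT PBS, with the mean as a point and a line from the lowest to the highest of 3 mice. Kitl is highest in every group, and Csf1 is second in Adm+/- LPS at 43.4.

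Genotype was then compared directly. In PBS none of the 10 genes passed, none had an unadjusted p below 0.05, and DESeq2 and limma-voom called none, beside 0% of all tested genes called and 344 with an unadjusted p below 0.05. The largest log2 differences in PBS were those of *Csf3* (-0.47; 95% interval -2.60 to 1.66) and *Csf2rb* (-0.36; -0.88 to 0.17). In LPS-treated lungs 1 of the 10 genes passed and was higher in *Adm*+/-, beside 0.327% of all tested genes called higher and 1.72% called lower. *Csf2* was 2.68-fold higher in *Adm*+/- than in WT (log2 1.42 ± 0.33; adjusted p = 0.0494), with every *Adm*+/- LPS mouse above every WT LPS mouse. Markers of other tissues moved in the same comparison. All 8 skeletal muscle markers were called lower in *Adm*+/- LPS than in WT LPS (median log2 difference -5.82), as were 3 of 5 tested squamous epithelium markers (median -6.38). Their part in the genotype differences of the 10 genes was not tested. The *Csf2* call lies at the threshold. It was lost without any one of 10 libraries, at an adjusted p of up to 0.161, and it was kept without WT LPS replicate 9 and without WT PBS replicate 5. It was lost too with a minimum of 1 CPM in 3 libraries (adjusted p = 0.0536), all annotated genes tested (0.0509), glmTreat (0.183) or only the 6 LPS libraries fitted (0.0842).

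Another 4 genes had an unadjusted p below 0.05 in this comparison, as did 2275 of the 15885 tested genes. *Csf1* was higher in *Adm*+/- by 0.94 ± 0.34 on the log2 scale (adjusted p = 0.212), *Csf3* by 1.96 ± 0.57 (adjusted p = 0.104) and *Il34* by 0.64 ± 0.16 (adjusted p = 0.0605), and none of these passed. *Csf1r* was at -0.42 ± 0.19 (adjusted p = 0.347). None of the 12 monocyte and macrophage markers was called in this comparison, 3 had an unadjusted p below 0.05, and their median log2 difference was -0.47, with 1 of the 12 above 0. Their part in the *Csf1r* difference was not tested. Without WT LPS replicate 9, *Csf1* (1.41; adjusted p = 0.0475) and *Csf3* (2.75; adjusted p = 0.0411) passed beside *Csf2*, in a fit that called 128 of 16026 genes higher and 303 lower. DESeq2 called *Csf2*, *Csf3* and *Il34* (191 of all tested genes higher, 612 lower), and limma-voom called *Csf2* and *Il34* (74 higher, 211 lower). The main fit called 52 of all tested genes higher and 273 lower. Without WT LPS replicate 11 the values were 0.60 for *Csf1* (adjusted p = 0.52), 1.52 for *Csf3* (adjusted p = 0.276) and 1.15 for *Csf2* (adjusted p = 0.16), and none of them passed. *Il34* passed without WT LPS replicate 10 (0.75; adjusted p = 0.0377), without WT PBS replicate 5 (adjusted p = 0.0406), without *Adm*+/- PBS replicate 8 (adjusted p = 0.0476) and with both low-share libraries left out (adjusted p = 0.0438). Every *Adm*+/- LPS mouse lay above every WT LPS mouse for 5 of the 10 genes, the ligands *Csf1*, *Csf2*, *Csf3*, *Il34* and *Kitl*, beside 12.2% of all tested genes. None of the 4 receptors among them showed this, but *Kit*, the receptor of stem cell factor, did, at 280 to 311 CPM against 184 to 272 CPM (log2 difference 0.37; adjusted p = 0.355). The log2 difference of *Csf3r* was -0.05 (95% interval -0.52 to 0.42), that of *Csf2ra* 0.00 (-0.59 to 0.58) and that of *Csf2rb* 0.43 (-0.09 to 0.94).

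The difference between genotypes in the LPS response itself was not called for any of the 10 genes, beside 0.145% of all tested genes, all of them (23 genes) with a lower response in *Adm*+/-. Of the 8 skeletal muscle markers, 4 were among those 23 genes (median of the list -5.12). An unadjusted p below 0.05 was reached by 4 of the 10 genes of the family, namely *Csf1*, *Csf2*, *Csf2rb* and *Il34*, beside 1247 of all tested genes, and DESeq2 and limma-voom called none. The log2 difference of responses was 1.10 for *Csf1* (95% interval 0.04 to 2.17; adjusted p = 0.613), 1.67 for *Csf2* (0.57 to 2.77; adjusted p = 0.401), 0.78 for *Csf2rb* (0.04 to 1.52; adjusted p = 0.594) and 0.80 for *Il34* (0.31 to 1.29; adjusted p = 0.339). *Csf3* had the largest value, 2.42, with an interval that reached below 0 (-0.07 to 4.92; adjusted p = 0.652). When any one library was left out, the value ranged from 0.76 (without WT LPS replicate 11) to 1.57 (without WT LPS replicate 9) for *Csf1*, from 1.41 to 2.18 (without the same libraries) for *Csf2*, and from 0.69 to 0.97 for *Il34*. It ranged from 0.40 (without WT PBS replicate 4) to 0.99 (without WT LPS replicate 9) for *Csf2rb* and from 1.62 to 3.22 (without the same libraries as for *Csf2rb*) for *Csf3*. None of these fits called any of the 10 genes. The response of *Csf3r* differed by 0.16 (-0.53 to 0.84; adjusted p = 0.996) and that of *Csf1r* by -0.24 (-0.82 to 0.35; adjusted p = 0.981). The remaining 3 genes, *Csf2ra*, *Kitl* and *Flt3l*, were at 0.27, 0.08 and -0.49.

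The genes with the most similar profile were found by Pearson's r of log2 CPM over the 12 libraries among 14601 genes, as a description, since all of these genes share the separation of LPS from PBS. *Csf1* was closest to *Tnfaip3*, a brake on NF-kappa B signalling (r = 0.992), *Spidr* (0.992) and *Icosl* (0.990). *Csf2* was closest to *Malt1* (0.990), a protease of NF-kappa B activation, *P2ry2* (0.986) and *Tifa* (0.985), and *Csf3* to the kinase *Pim1* (0.988), *Mab21l3* (0.985) and *Csrnp1* (0.985). *Il34* was closest to *Synpo* (0.978), *Adamts3* (0.973) and *Atp11a* (0.973). *Csf2rb* was closest to its paralogue *Csf2rb2* (0.995), *Irak3* (0.995) and *Glul* (0.993), *Csf3r* to *Pla2g7* (0.992), *Lpcat2* (0.991) and *Selplg* (0.990), the P-selectin ligand of leukocytes, and *Csf1r* to *Zbtb7b* (0.973), *Arid3a* (0.963) and *Gsn* (0.959).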

How the data were processed

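RNA of whole lungs was sequenced after rRNA depletion with a directional kit. The authors trimmed reads (Trim Galore), aligned them to mm10 (HISAT2) and counted them on Gencode genes (featureCounts). The deposited table holds raw read counts for 52550 genes in 12 libraries. Gencode release and strand option are not given in the sources used here.

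Counts of protein-coding genes passing filterByExpr (15885 of 21950) were scaled by TMM and tested with edgeR 4.0.16 (quasi-likelihood F-test, R 4.3.3) in 1 fit of 4 group means with 8 residual degrees of freedom and 5 contrasts. Intervals are 95% from the fit. Levels per kb used exon lengths of Gencode M21. Log2 CPM used a prior count of 2. On simulated counts for LPS against PBS in WT (15885 genes), 61% of 100 genes changed 2-fold and 90% of 100 genes changed 4-fold were recovered. No same-group pair of libraries (12 pairs) agreed within sampling noise. Each library is 1 mouse, and litters are not given. Reads carry no molecular identifiers.

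The members, lists and tests were chosen with earlier results of these data known, and the 3′ UTR search after the values were seen. Genes named were the 10 members, their pairing receptors and ligands, and 3 genes of most similar profile per member called. Of each pathway, neutrophil and macrophage list, the 3 most abundant and the 3 smallest-p genes were also named. Other cell type lists are given by counts, sums or both, and those of endothelium, type I pneumocytes and T and NK cells are not shown. *Cx3cr1*, *Ly6g* and *Socs1* were named after their values were seen. Alternatives were RLE and upper-quartile scaling, DESeq2 1.42.0, limma-voom 3.58.1, glmTreat, other filters, all annotated genes, leaving out libraries and fits of 6 libraries.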

Additional observations from a re-analysis of the deposited data

How the results depend on the processing

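The count of members called in WT (6) was 3 with a test against a log2 fold change of 0.5 (glmTreat), 2 with only the 6 libraries compared, and 3 to 7 when any one library was left out, the lowest without WT LPS replicate 9. Over all tested genes, the main fit called 1664 higher and 1127 lower in WT. These calls were 806 and 195 with glmTreat, 804 and 348 with only the 6 libraries compared, and 1002 and 441 without WT LPS replicate 9. The count of members for *Adm*+/- against WT in LPS (1, *Csf2*) was 3 with DESeq2, 2 with limma-voom, 2 with WT PBS replicate 5 and *Adm*+/- PBS replicate 6 left out, 0 with glmTreat, a minimum of 1 CPM in 3 libraries, all annotated genes or only the 6 libraries, and 0 to 3 with any one library left out. Over all tested genes, the main fit called 52 higher and 273 lower in this comparison. These calls were 191 and 612 with DESeq2, 74 and 211 with limma-voom, 140 and 408 with both low-share libraries left out, and 8 and 125 with glmTreat. The count of members called in the *Adm*+/- response was 6 to 8 throughout, and the counts of members in PBS and for the difference in response were 0 in all alternatives run. Of 1089 fold changes of members under alternatives, 1014 kept direction and call, 31 lost the call, 17 gained it and 27 reversed, each of them uncalled. In the WT response, *Kitl* reversed to -0.03 with WT PBS replicate 5, or both low-share libraries, left out. Among fits without one library, values that reversed ranged in WT from -0.03 to 0.45 for *Kitl* and from -0.20 to 0.13 for *Flt3l*. In the difference of responses they ranged from -0.14 to 0.50 for *Csf2ra*, from -0.04 to 0.33 for *Csf3r* and from -0.12 to 0.37 for *Kitl*. In PBS they ranged from -0.32 to 0.12 for *Csf1*, -1.08 to 0.33 for *Csf3*, -0.29 to 0.00 for *Csf1r*, -0.50 to 0.15 for *Csf2ra*, -0.53 to 0.03 for *Csf2rb*, -0.07 to 0.42 for *Kitl* and 0.00 to 0.30 for *Flt3l*, and *Csf3* was 0.03 with limma-voom. In LPS they ranged from -0.08 to 0.12 for *Csf2ra* and from -0.25 to 0.07 for *Csf3r*, and *Csf2ra* was 0.00 with RLE or DESeq2 and 0.01 with both low-share libraries left out. The cause of these changes was not tested. *Csf3* had 1 to 10 counts per PBS library, and the 95% interval of its difference in PBS ran from -2.60 to 1.66. No paired analysis was possible because the replicate numbers are library numbers that no 2 groups share.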
